A study of Homo sapiens with 6 samples.

Results

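Antisense RNAs that carry the name of a gene, written as the gene symbol followed by -AS and a digit, were set beside the gene on the opposite strand, called the sense gene here. Rows of the deposited table were taken when the name had this form and the mean normalized count over all 6 libraries was at least 150, with RARA-AS1 left out. That gave 127 antisense RNAs out of 820 rows with such a name and 32322 rows that name a gene. Of the 127, 124 had a row for their sense gene, which made 123 different sense genes because PTOV1-AS1 and PTOV1-AS2 share PTOV1. ADIRF-AS1, RPARP-AS1 and TRG-AS1 had none. Members were thus selected on their mean level over both treatments, and their levels are given as a description. Some reached 150 only through the treatment where they were high. IDI2-AS1 had means of 327 in compound 28 and 6.03 in DMSO, and MAFG-AS1 had 33.9 and 292. The largest rises and falls and the fold shares below include such members. Just inside the level were TNRC6C-AS1 with a mean of 151.3, RAB11B-AS1 with 150.4 and ZBED5-AS1 with 150.1 normalized counts, and just outside it were TRIM52-AS1 with 149.8, CAPN10-AS1 with 141.3 and KDM4A-AS1 with 136.6.

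The cells are titled MDA-MB-231, an established adherent human line of triple-negative breast cancer with a mesenchymal character, and the labels give the genotype as WT. Of 6 RNA sequencing libraries, 3 came from cells given 500 nM of compound 28, which the series title calls a degrader of CDK9, for 4 h, and 3 from cells given DMSO, whose time is not stated separately. Cells were grown in L-15 medium, and the source and cell line labels count up over the samples as far as MDA-MB-236, so they conflict with the titles. Nothing says that replicates were separate cultures, and p-values therefore measure only the spread between these libraries, which may be technical. In bulk RNA, fewer cells of a kind and less RNA per cell cannot be told apart.

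The libraries held 28505897 to 34062330 gene reads in compound 28 and 37186728 to 54830987 in DMSO. Of 15 marker genes of the named line, 13 had a row and 7 reached a mean of 100 normalized counts in DMSO, with CAV1 at 0 in 4 of the 6 libraries. All 12 markers of myeloid blood cells reached it, and their summed level ran from 164930 to 176260 normalized counts in compound 28 and from 107130 to 129420 in DMSO. AZU1 made up the largest part of this sum in every library, and the markers did not move together. Without overlap, SPI1, CD33, CSF1R and CEBPE were lower in compound 28, and MPO, AZU1, ELANE, PRTN3 and ITGAM were higher. PTPRC, FLT3 and LYZ overlapped between the groups. The markers of the named line summed to 12354 to 13342 in compound 28 and 15945 to 16261 in DMSO. The presence of the myeloid markers goes against the label, and the cells are called by their titles only. Markers of luminal epithelium and endothelium stayed under 10 normalized counts in the DMSO mean, and of 2 lymphoid markers with a row 1 reached 100. The part of these differences in the results below was not tested.

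With its cyclin, CDK9 forms P-TEFb and frees RNA polymerase II from the pause that follows the start of transcription. Many promoters fire in both directions, so that a gene and an antisense RNA start close together and run apart, while other antisense RNAs start inside or beyond the gene and run across it. Most RNAs made upstream of promoters are destroyed quickly by the nuclear exosome, yet the RNAs with names of their own are usually spliced and polyadenylated, and a few of them host small nucleolar RNAs.

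The promoter windows of 3 pairs are shown because they let a reader see how close the starts of the antisense RNA and its sense gene lie in pairs that moved apart or together in these libraries. SRRM2-AS1 fell while SRRM2 rose, CEBPA-AS1 and CEBPA fell together, and ZBED5-AS1 missed the threshold while ZBED5 fell. Each window is from RefSeq on GRCh38.p14, runs from 250 bases before to 50 bases after the start, and is written 5′ to 3′ on the strand of its RNA. Capitals mark the bases that also lie in the partner's window, where the same stretch is read on the other strand.
SRRM2-AS1, chr16:2752551-2752850, minus strand: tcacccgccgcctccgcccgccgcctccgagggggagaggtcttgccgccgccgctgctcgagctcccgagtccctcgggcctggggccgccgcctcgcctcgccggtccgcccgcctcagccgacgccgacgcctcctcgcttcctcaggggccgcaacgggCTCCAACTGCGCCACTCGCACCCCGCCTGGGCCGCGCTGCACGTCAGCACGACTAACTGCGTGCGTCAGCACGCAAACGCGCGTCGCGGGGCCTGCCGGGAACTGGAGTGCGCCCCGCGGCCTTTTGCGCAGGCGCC
SRRM2, chr16:2752388-2752687, plus strand: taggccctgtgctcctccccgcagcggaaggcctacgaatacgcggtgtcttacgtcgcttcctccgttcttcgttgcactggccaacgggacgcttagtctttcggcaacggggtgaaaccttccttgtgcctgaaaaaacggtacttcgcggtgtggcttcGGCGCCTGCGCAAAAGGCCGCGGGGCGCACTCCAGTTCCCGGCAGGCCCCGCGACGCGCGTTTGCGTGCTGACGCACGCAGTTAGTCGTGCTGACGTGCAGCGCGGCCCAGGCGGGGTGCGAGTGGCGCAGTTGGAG
CEBPA-AS1 (named CEBPA-DT in RefSeq), chr19:33302571-33302870, plus strand: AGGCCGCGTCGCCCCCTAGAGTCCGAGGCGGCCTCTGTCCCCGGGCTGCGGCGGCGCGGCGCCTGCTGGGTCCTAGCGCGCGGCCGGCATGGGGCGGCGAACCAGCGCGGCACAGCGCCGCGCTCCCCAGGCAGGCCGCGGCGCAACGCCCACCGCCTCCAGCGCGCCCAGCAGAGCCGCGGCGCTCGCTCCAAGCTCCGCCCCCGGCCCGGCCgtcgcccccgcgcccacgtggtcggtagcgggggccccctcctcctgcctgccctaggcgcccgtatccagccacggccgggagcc
CEBPA, chr19:33302485-33302784, minus strand: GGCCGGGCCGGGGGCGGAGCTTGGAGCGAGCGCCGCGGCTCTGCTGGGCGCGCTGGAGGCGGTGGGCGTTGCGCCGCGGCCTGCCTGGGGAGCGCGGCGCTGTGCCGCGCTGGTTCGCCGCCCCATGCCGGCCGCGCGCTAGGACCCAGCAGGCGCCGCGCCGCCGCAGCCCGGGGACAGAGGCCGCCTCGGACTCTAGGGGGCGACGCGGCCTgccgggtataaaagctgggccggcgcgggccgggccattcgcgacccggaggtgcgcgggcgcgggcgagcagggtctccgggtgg
ZBED5-AS1, chr11:10857967-10858266, plus strand: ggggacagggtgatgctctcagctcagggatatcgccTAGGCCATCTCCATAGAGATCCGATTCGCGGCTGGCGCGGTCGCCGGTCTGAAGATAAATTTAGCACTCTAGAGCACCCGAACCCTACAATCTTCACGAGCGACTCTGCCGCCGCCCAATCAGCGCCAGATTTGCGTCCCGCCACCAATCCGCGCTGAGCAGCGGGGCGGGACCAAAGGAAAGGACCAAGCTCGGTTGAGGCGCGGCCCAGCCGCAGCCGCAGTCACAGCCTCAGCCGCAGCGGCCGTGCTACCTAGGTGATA
ZBED5, chr11:10858004-10858303, minus strand: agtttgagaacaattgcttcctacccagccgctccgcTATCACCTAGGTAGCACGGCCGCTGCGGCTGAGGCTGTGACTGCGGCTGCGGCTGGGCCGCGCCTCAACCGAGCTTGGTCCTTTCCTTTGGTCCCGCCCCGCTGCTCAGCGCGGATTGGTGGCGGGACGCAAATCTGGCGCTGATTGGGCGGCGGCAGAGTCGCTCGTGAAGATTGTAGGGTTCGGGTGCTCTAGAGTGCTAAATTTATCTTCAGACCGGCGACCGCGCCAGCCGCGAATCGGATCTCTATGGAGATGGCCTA

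The windows shared 137 bases in the SRRM2 pair, 214 in the CEBPA pair and 263 in the ZBED5 pair. GC content was 76.7% for SRRM2-AS1 and 65% for SRRM2, with 47 and 38 CpG dinucleotides. The sequence GGGCGG, read on either strand, occurred 2 times in the window of SRRM2-AS1 and not in that of SRRM2, and 2 times in each window of the other pairs. TATAAA occurred in the window of CEBPA and in no other of the 6. RefSeq windows were found for 99 members and for the sense genes of 98 members, PTOV1 being counted for each of its members. In 80 pairs they lay on opposite strands, of which 32 shared bases. These 80 include ADIRF-AS1 with ADIRF, which had no row. Over the 80 antisense windows 61.3% held GGGCGG, 23.8% CCGGAAG, 37.5% CCAAT, 13.8% CACGTG and 5% TATAAA. The 80 sense windows held them in 60%, 22.5%, 33.8%, 5% and 10%. Among all 35116 windows of the same length the shares were 45.0%, 10.3%, 34.6%, 7.26% and 11.5%. A match within bases shared by both windows of a pair counts in the antisense and the sense set, so these sets are not independent. Where a gene had several windows, those with the nearest starts in the pair were taken, a choice not made among all windows. None of these motifs contains another, each was searched on both strands, and a match is a description of the letters only.

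Compound 28 was compared with DMSO to see how the antisense RNAs differ after exposure to a compound described as a CDK9 degrader. After 4 h the antisense RNAs divided almost evenly, with 53 higher and 52 lower in compound 28 than in DMSO and 22 not called (limma-trend, Benjamini-Hochberg adjusted p under 0.05 over all 18278 genes tested, all 127 among them). Among all genes 35.5% were called higher and 37.3% lower, 72.8% in either direction, against 41.7% and 40.9% of the antisense RNAs. The median change of the antisense RNAs was 0.05 on the log2 scale and that of all genes -0.03. The compound 28 libraries lay wholly above the DMSO libraries in 55 antisense RNAs and wholly below in 52, together 84.3%, beside 75.7% of all genes. The genes tested include rows with a mean under 150, so the shares of members and of all genes are for unlike levels. The split depends on how the libraries are scaled: with library sizes only 35 were higher and 65 lower, with ribosomal protein mRNAs as the scale 15 and 89, and with mitochondrially encoded mRNAs 12 and 102. These scalings moved the median of all genes to -0.48, -1.14 and -1.47, so a direction given without a scale is one relative to the median gene.

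At least 2-fold, 29 antisense RNAs were higher and 31 lower, at least 4-fold 12 and 11, and at least 8-fold 9 and 6. As shares of the antisense RNAs these were 22.8% and 24.4%, 9.45% and 8.66%, and 7.09% and 4.72%. Among all genes 21.8% and 23.8% passed 2-fold upward and downward, 10.7% and 9.80% 4-fold, and 6.42% and 3.79% 8-fold, so the sizes were near those of all genes. The 313 other antisense RNAs tested, with a mean under 150 or an -AS name outside the form used here, had 72 higher, 124 lower and a median of -0.47. By the authors' deposited table, members numbered 51 higher and 51 lower at an adjusted p under 0.05, 40.2% each, against 29% and 25.4% of the 26674 gene rows with an adjusted p there. Those rows include low ones that the filter used here leaves out, so these shares compare genes of unlike level.

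The sense genes divided in a similar way, with 48 higher, 42 lower, 31 not called and 2 not tested among 123, and a median of 0.14. EPB41L4A, with means of 20.5 normalized counts in compound 28 and 3.30 in DMSO, and CD27, with 3.34 and 13.3, were too low to be tested. The ratio of antisense to sense was then compared within each library, where the scaling cancels except for the added pseudocount. Of 122 pairs tested, the ratio rose in 41 and fell in 44, and 37 were not called (limma, adjusted over the 412 pairs of the table). Over those 412 pairs 59.0% were called, 26.2% higher and 32.8% lower. The 412 include the 122 and also pairs with an antisense RNA under the level of 150, so the sets are of unlike level. The counts for the 122 pairs were the same under each of 7 scalings. Over the 412 pairs they went from 108 higher and 135 lower to 110 and 132 on the mitochondrial scale.

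**Figure D1:**
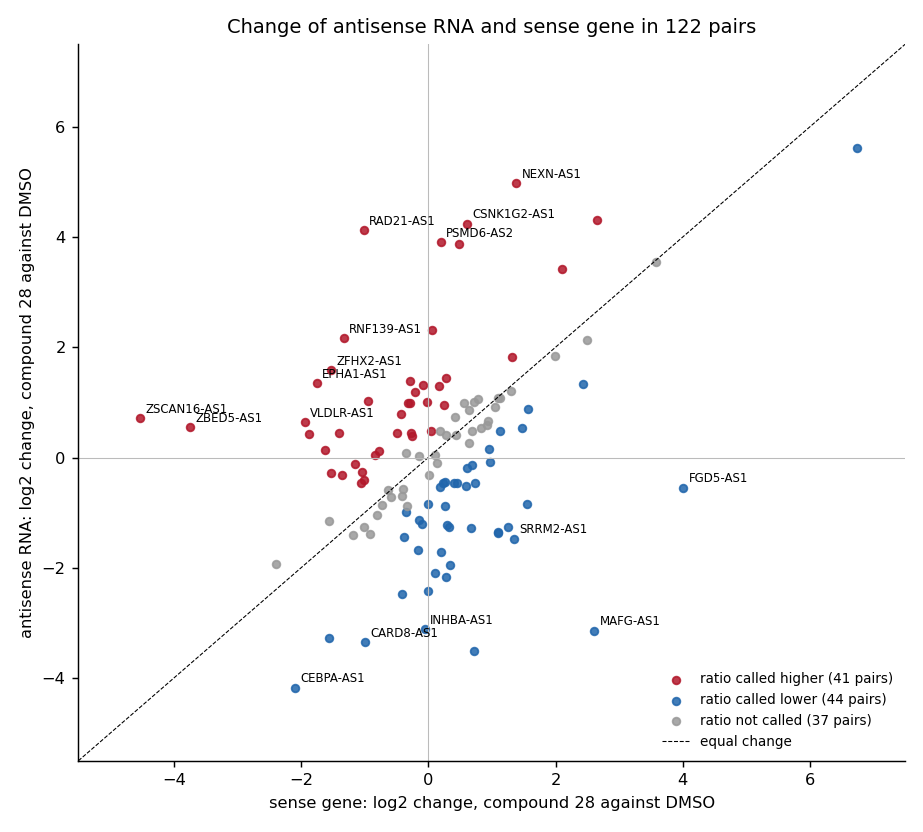
Each point is an antisense RNA and its sense gene (122 pairs), with the log2 change of the sense gene across and that of the antisense RNA upward, compound 28 against DMSO; colour gives the call on the antisense-to-sense ratio and the dashed line equal change. Points lie in all 4 quadrants, with RAD21-AS1 and ZSCAN16-AS1 far above the line and MAFG-AS1 and FGD5-AS1 far below it.

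In the plot of paired changes the antisense RNA and its sense gene were called in the same direction in 49 of 122 pairs (40.2%), 28 with both higher and 21 with both lower. They were called in opposite directions in 28 pairs (23.0%), 14 each way. Over all 412 pairs, these 122 among them, 38.6% were called in the same and 16.3% in opposite directions. In the other 290 pairs the shares were 37.9% and 13.4%. The 122 were selected for a mean antisense level of at least 150, so these shares are for unlike levels. The antisense RNA alone was called in 25 pairs, the sense gene alone in 14 and neither in 6. Across the 122 pairs the changes of the 2 RNAs correlated with Pearson's r of 0.33 and Spearman's rho of 0.24, a description over pairs that share the same 6 libraries. Opposite calls numbered 23 with library sizes only, 10 with ribosomal protein mRNAs and 8 with mitochondrially encoded mRNAs as the scale. On those 3 scales 15, 6 and 5 pairs were both higher and 37, 68 and 87 both lower. With upper-quartile factors 36 were both higher and 11 both lower, and without compound 28 replicate 1 the number both lower was 13.

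The most abundant antisense RNA by normalized count was LRRC75A-AS1, which holds the small nucleolar RNAs SNORD49A, SNORD49B and SNORD65 within its bounds in GENCODE. It had 33068, 32482 and 39701 normalized counts in compound 28, against 15205, 15615 and 14619 in DMSO. Every compound 28 library lay above every DMSO library. It averaged 35083 ± 4009 in compound 28 and 15146 ± 501 in DMSO (SD, n = 3 each), a rise of 1.21 ± 0.10 on the log2 scale (SE; adjusted p = 1.9e-06, limma). LRRC75A itself had 160.1, 219 and 165 normalized counts in compound 28 and 87.4, 89.4 and 48.3 in DMSO. The sense gene rose alike (log2 change 1.30, adjusted p = 0.0014, limma), and the ratio overlapped between the groups (log2 change -0.09, adjusted p = 0.77). Per kilobase of exon the antisense RNA stood at 9333 normalized counts in compound 28 and 4029 in DMSO, and LRRC75A at 49.1 and 20.3. The 127 antisense RNAs together took 0.258%, 0.260% and 0.269% of gene reads in compound 28 and 0.287%, 0.291% and 0.266% in DMSO. Without LRRC75A-AS1 they took 0.181% ± 0.00239 in compound 28 and 0.234% ± 0.0116 in DMSO (SD, n = 3 each), with no overlap. Both changes of the LRRC75A pair turned downward with mitochondrially encoded mRNAs as the scale and lost their call with ribosomal protein mRNAs.

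SLC9A3-AS1 was the next most abundant, beside SLC9A3, a sodium-proton exchanger. It had 9229, 8953 and 8107 normalized counts in compound 28 and 5745, 5340.5 and 3532 in DMSO, and SLC9A3 had 2844, 2996 and 2652 in compound 28 and 960.5, 1106 and 808 in DMSO. The groups did not overlap for either RNA. SLC9A3 rose more than its antisense RNA, by 1.57 against 0.88 on the log2 scale, and the ratio fell (log2 change -0.70, adjusted p = 0.0028, limma). The rise of SLC9A3-AS1 turned to a fall when ribosomal protein or mitochondrially encoded mRNAs set the scale, and SLC9A3 was not called on the mitochondrial scale (log2 change 0.12, adjusted p = 0.40).

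OIP5-AS1, also called cyrano, lies opposite OIP5, which helps to load the centromeric histone. It had 4097, 4048 and 4389 normalized counts in compound 28 and 5803, 6055 and 6750.5 in DMSO, and OIP5 had 244, 302 and 214 in compound 28 and 295, 300.4 and 406 in DMSO. The groups were apart for the antisense RNA and overlapped for OIP5. OIP5-AS1 fell by 1.48-fold (log2 change -0.57, adjusted p = 1.6e-04, limma), while OIP5 at -0.40 and the ratio at -0.17 were not called (adjusted p = 0.075 and 0.41). OIP5 was called lower without compound 28 replicate 2 (adjusted p = 0.039) and under 4 scalings.

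GABPB1-AS1 shares its start region with GABPB1, a subunit of the ETS-family factor GABP. The antisense RNA had 4156, 4624 and 4312 normalized counts in compound 28 and 5457, 5413 and 5441 in DMSO, and GABPB1 had 905, 889 and 874 in compound 28 and 2405, 2256 and 2173 in DMSO. Both RNAs were lower in every compound 28 library than in any DMSO library. GABPB1 fell more, by 2.56-fold against 1.25-fold, so that the ratio rose by 1.04 on the log2 scale (adjusted p = 8.6e-05, limma). With upper-quartile factors the fall of GABPB1-AS1 was not called (adjusted p = 0.20).

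FGD5-AS1 completes the 5 most abundant. It had 2089, 2189 and 2740.3 normalized counts in compound 28 and 3061, 3364 and 3820.4 in DMSO, a fall of 1.46-fold with no overlap (adjusted p = 0.002, limma). FGD5, an exchange factor for the GTPase CDC42 best known from endothelium, had 16.2, 27.7 and 17.1 normalized counts in compound 28 and 1.16, 0 and 0 in DMSO. That is 44 reads against 2 reads over 3 libraries each, which after normalization is 46.0 times as many (95% interval 12 to 392, exact binomial, counting error only). On the log2(value + 1) scale FGD5 rose by 4.00 and the ratio fell by 4.55, and with a pseudocount of 5 FGD5 was at 2.21 and the FGD5-AS1 ratio at -2.76.

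IDI2-AS1 had the largest rise. It crosses IDI2, an isopentenyl diphosphate isomerase of the isoprenoid pathway. The antisense RNA had 316, 348 and 316 normalized counts in compound 28, against 9.26, 4.53 and 4.31 in DMSO. IDI2 moved with it, with 223, 262 and 135 normalized counts in compound 28 and 1.16, 0.647 and 0.862 in DMSO. The groups lay far apart for both RNAs, and DMSO was near the level of single reads for IDI2. IDI2-AS1 rose 48.8-fold (log2 change 5.61 ± 0.32, SE; adjusted p = 1.9e-07, limma) and IDI2 107-fold (adjusted p = 1.9e-07). With a pseudocount of 5 the log2 rises were 4.94 and 5.12. The fall of the ratio (-1.13, adjusted p = 0.013) lost its call with that pseudocount (adjusted p = 0.61) and without compound 28 replicate 1 or 2 (adjusted p = 0.061 and 0.063).

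NEXN-AS1 starts next to NEXN, which encodes the actin-binding protein nexilin. It had 335, 395 and 381 normalized counts in compound 28 and 13.3, 9.06 and 10.3 in DMSO. NEXN had 419, 479 and 410.3 in compound 28 and 170.2, 148 and 181 in DMSO. Both rose with no overlap, the antisense RNA by 4.97 and NEXN by 1.39 on the log2 scale (adjusted p = 9.7e-08 and 1.4e-05, limma). The ratio of the antisense count to the NEXN count, each plus 1, was 0.800, 0.825 and 0.928 in compound 28 and 0.0836, 0.0674 and 0.0623 in DMSO, and its log2 value rose by 3.59 (adjusted p = 8.1e-07). The rise of NEXN was lost with ribosomal protein mRNAs as the scale and turned with mitochondrially encoded mRNAs, while that of NEXN-AS1 was called under each of the 7 scalings.

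ADAMTSL4-AS1 crosses ADAMTSL4, a protein of the extracellular matrix that binds fibrillin. The antisense RNA had 399.5, 506 and 546 normalized counts in compound 28 and 24.3, 27.2 and 19.0 in DMSO, and ADAMTSL4 had 1861, 1828 and 2136 in compound 28 and 307, 315 and 298 in DMSO. All 3 compound 28 libraries were above all 3 DMSO libraries for each. The log2 rises were 4.31 and 2.66 (adjusted p = 1.3e-07 and 3.7e-08, limma), and the ratio rose by 1.65 (adjusted p = 9.5e-05).

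CSNK1G2-AS1 starts beside CSNK1G2, a casein kinase. It had 979.8, 1097 and 968 normalized counts in compound 28, against 56.2, 55.7 and 46.5 in DMSO. CSNK1G2 had 11801, 11050.0 and 13322 in compound 28 and 8629.6, 7669.5 and 7500.3 in DMSO. The antisense RNA rose 18.9-fold and its sense gene 1.52-fold, each without overlap (adjusted p = 3.1e-08 and 2.4e-04, limma). The ratio rose by 3.64 ± 0.18 on the log2 scale (SE; adjusted p = 7.7e-08). CSNK1G2 lost its call with library sizes only and turned downward on the ribosomal protein and mitochondrial scales, which did not end the call of CSNK1G2-AS1.

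RAD21-AS1 starts beside RAD21, which encodes the cleavable subunit of cohesin. The antisense RNA had 376, 304 and 339 normalized counts in compound 28 and 16.8, 18.1 and 20.7 in DMSO. RAD21 went the other way, with 7258, 6819.9 and 6923 in compound 28 and 12132, 13036 and 17906 in DMSO. Neither RNA had overlapping groups. The antisense RNA rose 17.4-fold and RAD21 fell 2.02-fold (adjusted p = 1.5e-07 and 4.8e-05, limma), and the ratio rose 35.3-fold (adjusted p = 5.3e-08). Per kilobase of exon RAD21-AS1 reached 169 normalized counts in compound 28 and 9.22 in DMSO, beside 1130.5 and 2319 for RAD21.

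**Figure D2:**
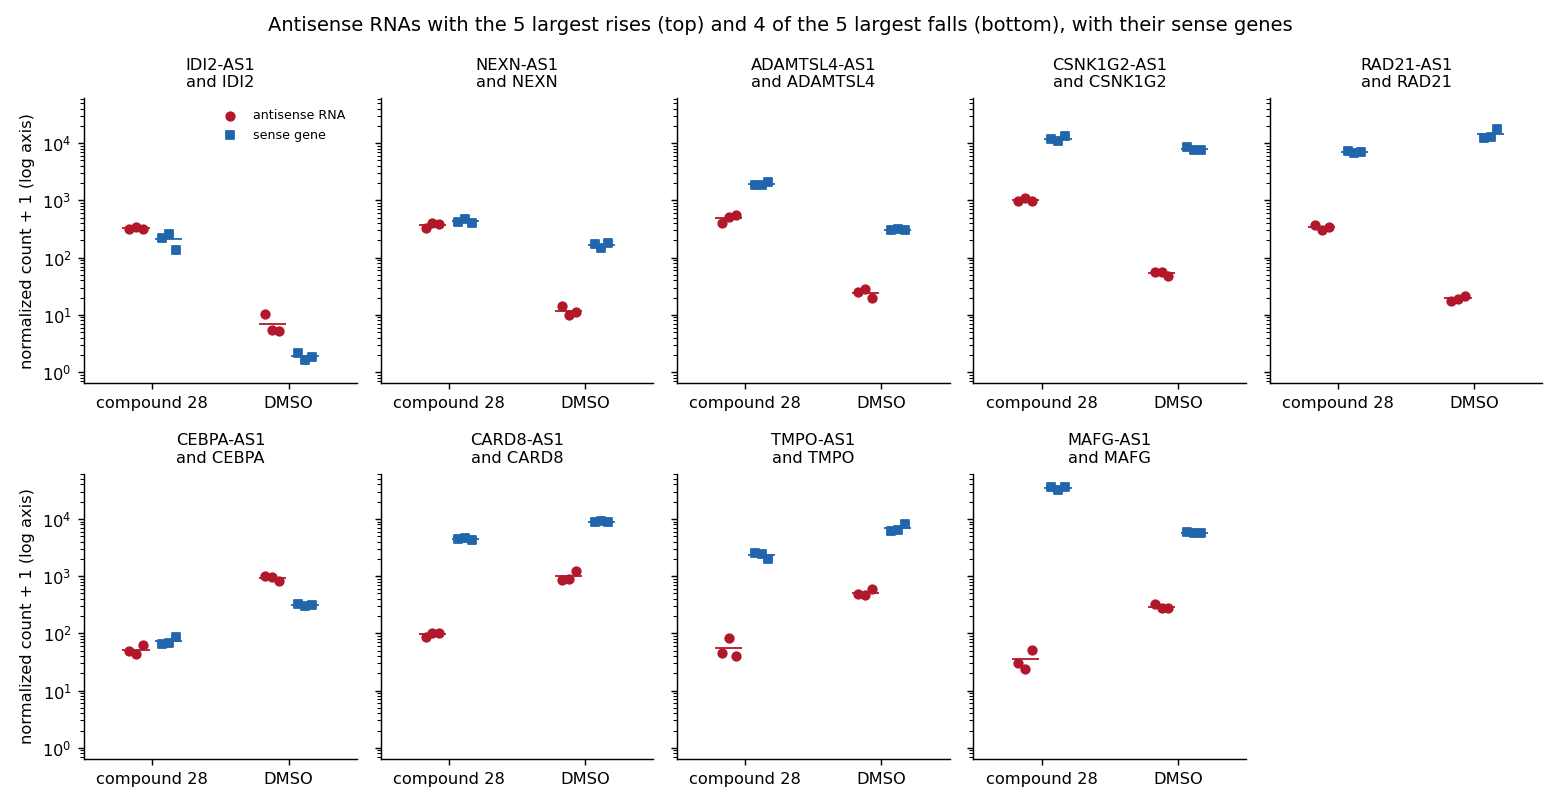
Normalized count plus 1 (log axis) in each library of compound 28 (left) and DMSO (right) for the antisense RNAs (red circles) with the 5 largest rises (top) and 4 of the 5 largest falls (bottom) and for their sense genes (blue squares); short lines are group means. The red points move between treatments by more than the blue squares in every panel except IDI2.

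The largest fall was that of CEBPA-AS1, whose start is printed above. Its neighbour CEBPA encodes a transcription factor of granulocyte formation. CEBPA-AS1 had 48.5, 42.8 and 60.6 normalized counts in compound 28, against 999, 956 and 825 in DMSO. CEBPA had 63.2, 67.9 and 87.0 in compound 28 and 324, 303 and 308 in DMSO. Each RNA was lower in all 3 compound 28 libraries than in any DMSO library. The antisense RNA fell 18.1-fold and CEBPA 4.28-fold (adjusted p = 4.5e-08 and 3.6e-06, limma). The ratio fell by 2.08 on the log2 scale (adjusted p = 2.6e-06). Per kilobase of exon CEBPA-AS1 stood at 23.0 normalized counts in compound 28 and 422 in DMSO, and CEBPA at 27.6 and 118, so the antisense RNA was the more abundant of the pair in DMSO and not in compound 28.

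CARD8-AS1 had 83.7, 102 and 99.5 normalized counts in compound 28 and 855, 883 and 1238 in DMSO, a 10.2-fold fall (adjusted p = 1.2e-07, limma). Its neighbour CARD8, which can form an inflammasome, had 4523, 4579.7 and 4332 in compound 28 and 8856, 9332 and 8664 in DMSO and fell to 4478 ± 129.8 in compound 28, against 8950.4 ± 344 in DMSO (SD, n = 3 each; adjusted p = 1.3e-06). Neither set of libraries overlapped, and the ratio fell by 2.36 on the log2 scale (adjusted p = 3.1e-06). TMPO-AS1 repeated this pattern beside TMPO, a gene for proteins of the nuclear lamina. It had 44.1, 81.8 and 38.9 normalized counts in compound 28 and 494, 459.7 and 587 in DMSO. TMPO had 2537, 2434 and 2009.8 in compound 28 and 6179, 6418 and 8086 in DMSO. Both fell without overlap, by 3.27 for the antisense RNA and 1.56 for TMPO on the log2 scale, and the ratio fell by 1.71 (adjusted p = 1.8e-04, limma).

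MAFG-AS1 had the widest divergence of all pairs. MAFG is a small Maf protein, a partner of other bZIP transcription factors. MAFG-AS1 had 29.4, 22.6 and 49.7 normalized counts in compound 28 and 322, 275 and 279 in DMSO. MAFG had 35600.0, 32443 and 36752 in compound 28 and 5844, 5595 and 5752 in DMSO. The antisense libraries of compound 28 lay below and the sense libraries above those of DMSO. The antisense RNA fell 8.82-fold and MAFG rose 6.09-fold (adjusted p = 3.8e-06 and 1.4e-08, limma), so the ratio fell 53.7-fold (adjusted p = 5.3e-08). The name MAFG-AS1 stands for 2 genes in RefSeq, and its arrangement with MAFG was not assigned.

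The 14 pairs with a higher antisense RNA and a lower sense gene were led by ZSCAN16-AS1 and RAD21-AS1. ZSCAN16-AS1 crosses ZSCAN16, a zinc finger gene of the SCAN family. It had 494, 553 and 448 normalized counts in compound 28 and 345, 293 and 271 in DMSO. ZSCAN16 had 1.47, 10.1 and 1.55 in compound 28 and 92.6, 96.5 and 92.2 in DMSO. The sense gene was close to the level of single reads in compound 28 replicates 1 and 3, and the groups were apart for both RNAs. The antisense RNA rose 1.64-fold (adjusted p = 0.0011, limma) and ZSCAN16 fell by 4.52 on the log2 scale (adjusted p = 3.3e-05), or by 5.24 without compound 28 replicate 2. The ratio rose by 5.24 (adjusted p = 2.6e-06), or by 5.88 without that library. The rise of ZSCAN16-AS1 was not called with library sizes only and turned on the ribosomal protein and mitochondrial scales.

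RNF139-AS1 starts beside RNF139, a ubiquitin ligase of the endoplasmic reticulum. It had 682, 649 and 629.5 normalized counts in compound 28 and 139.5, 169.6 and 129 in DMSO, and RNF139 had 730.0, 756 and 894 in compound 28 and 1726, 2077 and 2172 in DMSO. The libraries of each group stayed apart, in opposite directions. RNF139-AS1 rose 4.47-fold and RNF139 fell 2.51-fold (adjusted p = 5.9e-07 and 3.7e-06, limma). ZFHX2-AS1, opposite the zinc finger homeobox gene ZFHX2, had 409.8, 317 and 460.1 normalized counts in compound 28 and 130.3, 141 and 119 in DMSO. ZFHX2 had 51.4, 75.5 and 56.0 in compound 28 and 172, 174 and 183 in DMSO. Neither RNA had overlapping groups. Per kilobase of exon ZFHX2-AS1 stood at 77.6 normalized counts in compound 28 and 25.5 in DMSO, above ZFHX2 at 6.02 and 17.4 in both treatments. The ratio rose by 3.12 on the log2 scale (adjusted p = 2.7e-06, limma). ZFHX2-AS1 was not called on the mitochondrial scale.

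EPHA1-AS1 lies beside EPHA1, a receptor tyrosine kinase for ephrins. It had 595, 533 and 710.3 normalized counts in compound 28 and 189.9, 237 and 304 in DMSO, and EPHA1 had 63.2, 86.8 and 99.5 in compound 28 and 268, 276 and 289.6 in DMSO. Every library of compound 28 was above DMSO for the antisense RNA and below it for EPHA1, and the ratio rose by 3.10 on the log2 scale (adjusted p = 7.0e-07, limma). VLDLR-AS1 starts beside VLDLR, a lipoprotein receptor. It had 314, 262 and 230.0 normalized counts in compound 28 and 182, 191 and 144 in DMSO. VLDLR had 776, 850.3 and 772 in compound 28 and 2983, 3166 and 3047 in DMSO. No groups overlapped, and the ratio rose by 2.57 (adjusted p = 1.7e-06, limma). On the ribosomal protein scale EPHA1-AS1 was not called and VLDLR-AS1 turned downward, on the mitochondrial scale both turned downward, and with library sizes only VLDLR-AS1 was not called.

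ZBED5-AS1, whose shared start with ZBED5 is printed above, had 198, 158 and 174 normalized counts in compound 28 and 152, 88.7 and 129 in DMSO. ZBED5, a gene derived from a transposon, had 113, 174 and 160.1 in compound 28 and 1987, 2084 and 1844 in DMSO. The antisense libraries lay close together and did not overlap, and those of ZBED5 lay far apart. ZBED5-AS1 was not called (log2 change 0.55, adjusted p = 0.051, limma), while ZBED5 fell 13.4-fold (adjusted p = 4.6e-08) and the ratio rose 19.5-fold (adjusted p = 8.1e-07). ZBED5-AS1 was called higher under 5 alternatives (adjusted p = 0.014 to 0.047) and turned downward on the ribosomal protein and mitochondrial scales. PSMD6-AS2 crosses PSMD6, a subunit of the regulatory particle of the proteasome. It had 768, 772 and 771 normalized counts in compound 28, against 53.8, 46.0 and 52.6 in DMSO, while PSMD6 had 3562, 3332 and 3209.7 in compound 28 and 2971, 2944 and 2904 in DMSO. The antisense RNA rose 14.9-fold with little spread (adjusted p = 3.7e-08, limma). The call on PSMD6 (log2 change 0.19, adjusted p = 0.049) was lost without 5 of the 6 libraries in turn and turned under 3 scalings.

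In the other direction, 14 pairs had a lower antisense RNA and a higher sense gene, among them MAFG-AS1 and FGD5-AS1. SRRM2-AS1, with its promoter printed above, had 88.1, 114 and 71.5 normalized counts in compound 28 and 243, 267 and 241 in DMSO. SRRM2, a scaffold of nuclear speckles and a splicing factor, had 63142, 62856 and 63457 in compound 28 and 24136, 24977 and 25391 in DMSO. All compound 28 libraries were below DMSO for the antisense RNA and above it for SRRM2. The antisense RNA fell 2.77-fold and SRRM2 rose 2.54-fold (adjusted p = 9.6e-05 and 3.8e-07, limma). SRRM2 was not called on the ribosomal protein scale and turned downward on the mitochondrial scale. The ratio, in which the scale nearly cancels, fell 7.04-fold (adjusted p = 1.7e-06, limma). INHBA-AS1 had 45.5, 23.9 and 35.8 normalized counts in compound 28 and 290.1, 298 and 314 in DMSO and fell 8.63-fold (adjusted p = 1.8e-06, limma). INHBA, a subunit of activin A, had 1002, 808 and 1097 in compound 28 and 871, 932 and 1233 in DMSO. Its groups overlapped (log2 change -0.06, adjusted p = 0.75), and the ratio fell by 3.05 on the log2 scale (adjusted p = 1.9e-06).

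**Figure D3:**
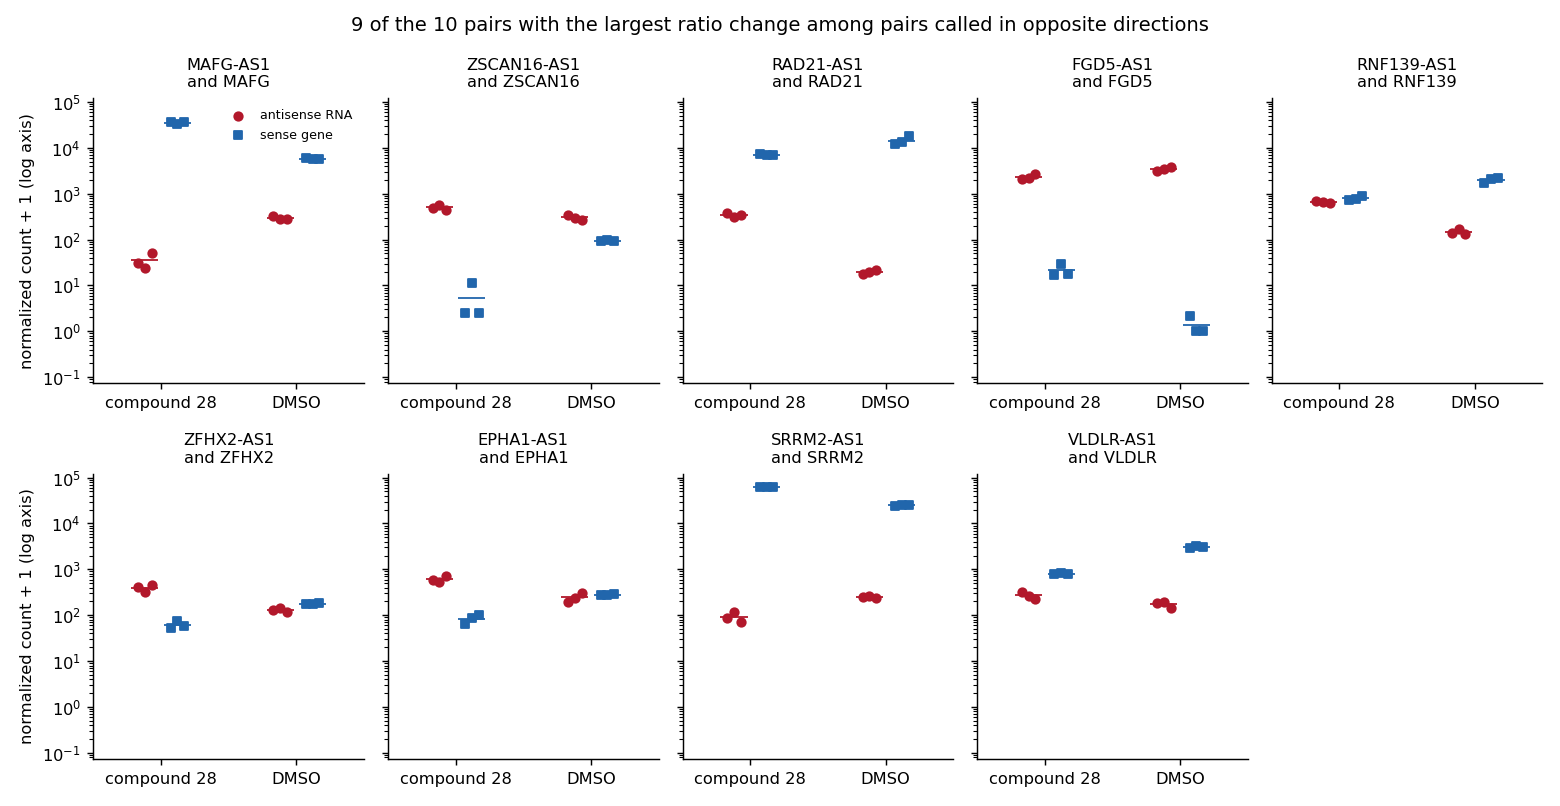
Normalized count plus 1 (log axis) in each library of compound 28 (left) and DMSO (right) for 9 of the 10 pairs with the largest ratio change among those called in opposite directions; red circles are antisense RNAs, blue squares sense genes and short lines group means. Red and blue move against each other in every panel, most widely for MAFG-AS1 with MAFG.

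The plot of opposite pairs shows 9 of the 10 widest of 28. In the 18 narrower pairs the antisense RNA was lower and the sense gene higher for EXOC3-AS1, CTBP1-AS2, THAP9-AS1, PRKAG2-AS1, LENG8-AS1, PAN3-AS1, RNASEH1-AS1, MEF2C-AS1, LAMP5-AS1 and ALOX12-AS1. It was higher beside a lower sense gene for FOXD2-AS1, STARD7-AS1, CCDC18-AS1, FOXP4-AS1, NUP50-AS1, C1RL-AS1, ZNF529-AS1 and NCBP2-AS2. EXOC3-AS1 fell by 1.26 and EXOC3, a subunit of the exocyst, rose by 1.25 on the log2 scale. STARD7-AS1 rose by 1.03 while STARD7, a carrier of phosphatidylcholine to mitochondria, fell by 0.95. NCBP2-AS2 rose by 0.44 and NCBP2, a subunit of the nuclear cap-binding complex, fell by 0.27, the smallest ratio change of the 28 (0.71).

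By the arrangement of the genes in GENCODE release 29, the starts of the antisense RNA and the sense gene lay within 1000 bases of each other in 78 pairs, called head to head here. RefSeq windows of both genes were found for 51 of these pairs, and in 6 of them the RefSeq starts lay over 1000 bases apart, by up to 26913 bases for MELTF-AS1. In 44 pairs the genes overlapped with starts further apart, FOXD2-AS1 did not overlap FOXD2, and MAFG-AS1 was not placed. Head to head, 30 antisense RNAs were higher and 33 lower with a median of 0.05. Among the overlapping pairs 22 were higher and 16 lower with a median of 0.27. The sense genes had 32 higher and 30 lower head to head, and 16 higher and 11 lower among overlapping pairs. The ratio rose in 29 and fell in 28 of the head-to-head pairs, and rose in 11 and fell in 15 of the overlapping pairs. These counts describe the arrangements and no difference between them was tested.

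**Figure D4:**
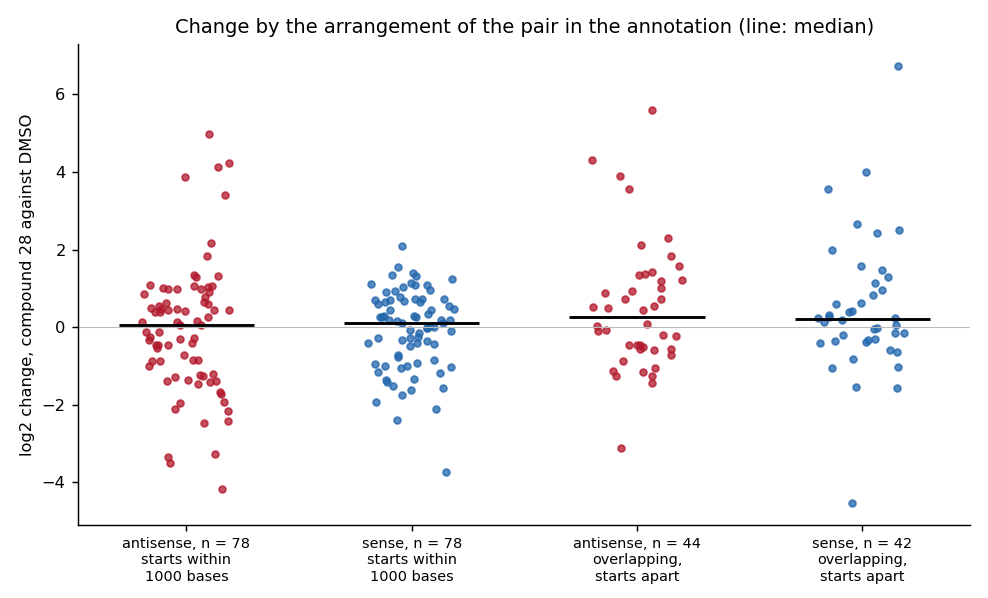
Log2 change (compound 28 against DMSO) of each antisense RNA (red) and sense gene (blue) in pairs whose starts lie within 1000 bases (78 pairs) and in overlapping pairs with starts further apart (44 antisense RNAs, 42 tested sense genes); black lines are medians. Head to head, the antisense RNAs run from CEBPA-AS1 at -4.18 to NEXN-AS1 at 4.97, with medians of 0.05 there and 0.27 in the overlapping pairs.

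In the plot by arrangement, head-to-head pairs included the falls of CEBPA-AS1, CARD8-AS1 and TMPO-AS1 and the rises of NEXN-AS1, CSNK1G2-AS1 and RAD21-AS1. Of these 78 pairs 42 changed with the same sign (Pearson's r 0.20, Spearman's rho 0.15), and of 42 overlapping pairs with both RNAs tested 27 did (r 0.55, rho 0.49), again a description over pairs from the same libraries. Exons of the antisense RNA and the sense gene overlapped in 90 pairs, where 41 antisense RNAs were higher and 35 lower, and did not in 33, where 12 were higher and 14 lower. The library kit keeps the strand, but the strand setting of the counting is not given in the sources used here. It is therefore not known how reads were assigned where a gene and its antisense partner overlap. Such reads may have been counted for either gene or set aside as ambiguous. Pairs without exon overlap are not thereby free of this limit. Reads set aside as ambiguous between genes were 6.29% ± 0.351 of all reads in compound 28 and 7.20% ± 0.170 in DMSO (SD, n = 3 each; two-sided exact permutation p = 0.1, the smallest that 3 against 3 allows).

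By annotation 84 members were of the antisense type, 23 processed transcripts and 13 lincRNAs. NCBP2-AS2 and MMP24-AS1 were typed as protein-coding. Another 2 were transcribed unitary pseudogenes, 2 transcribed unprocessed pseudogenes, and 1 was not placed. Small RNAs inside other members were SNORA13 in EPB41L4A-AS1, which was not called (-0.24), MIR3157 in ENTPD1-AS1, which fell by 1.26, MIR4712 in GABPB1-AS1, MIR4999 in RAB11B-AS1, which fell by 0.99, RF00156 in TMEM161B-AS1, which was not called (0.13), and MIR3199-2 in TTC28-AS1, which was not called (-0.08), all on the log2 scale. Higher members had a median total exon length of 3759 bases, with all transcripts merged, and a median of 4 exons in the transcript with most exons. Lower members had 4683 bases and also 4 exons.

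The remaining members are given by what their sense gene encodes, a grouping made with the values known and not tested. Among 27 pairs of transcription and chromatin genes 12 antisense RNAs were higher, 12 lower and 3 not called, and 9 sense genes were higher and 14 lower. SATB1-AS1, named for an organiser of chromatin, rose by 1.00 and SATB1 by 0.72. FOXP4-AS1 and FOXD2-AS1, named for forkhead genes, rose by 0.99 and 0.42, and SNAI3-AS1 rose by 0.95. Falls were seen in WAC-AS1 (-2.43), MZF1-AS1 (-1.44), PAXIP1-AS1 (-1.38), CTBP1-AS2 (-1.38), THAP9-AS1 (-1.36), FBXL19-AS1 (-0.86), TP73-AS1 (-0.60), JMJD1C-AS1 (-0.54) and MEF2C-AS1 (-0.46). WAC, an adaptor for the ubiquitination of histone H2B, itself stayed at -0.01 (adjusted p = 0.92, limma), with 5525 ± 293 normalized counts in compound 28 and 5569 ± 407 in DMSO (SD, n = 3 each). Zinc finger pairs were mixed: ZNF790-AS1 (1.01), ZNF710-AS1 (1.00), ZNF529-AS1 (0.45) and ZNF561-AS1 (0.40) rose, and ZNF528-AS1 (0.13) and ZNF213-AS1 (-0.25) were not called. PAXBP1-AS1 rose by 0.54.

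Among 17 pairs whose sense gene acts in RNA processing, RNA export or translation, 4 antisense RNAs were higher, 9 lower and 4 not called, and 6 pairs went in opposite directions. DICER1-AS1 rose by 0.92 together with DICER1, the nuclease that cuts microRNA precursors (1.05). NUP50-AS1 rose by 0.98 and PCBP1-AS1 by 0.48. PAN3-AS1 fell by 1.94 while PAN3, a subunit of a poly(A) nuclease, rose by 0.35, and RNASEH1-AS1 fell by 1.27 while RNASEH1, which removes RNA from RNA-DNA hybrids, rose by 0.67. EIF3J-AS1 (-1.67), NOP14-AS1 (-1.25), NIFK-AS1 (-1.15), THUMPD3-AS1 (-1.14) and MCM3AP-AS1 (-0.88) also fell. MBNL1-AS1 (0.05), TNRC6C-AS1 (0.08), PDCD4-AS1 (-0.13) and SRP14-AS1 (0.16) were not called. In the group of chromosome and division genes SPAG5-AS1 rose by 1.31 and CCDC18-AS1 by 1.38.

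Of 8 proteasome and ubiquitin pairs, 2 antisense RNAs were higher, 4 lower and 2 not called, while 5 of the sense genes were lower. OTUD6B-AS1 fell by 2.47 and OTUD6B, a deubiquitinase, by 0.42. PSMG3-AS1 fell by 0.70, ASB16-AS1 by 0.71 and PSMD5-AS1 by 0.27, and PSMD5, a chaperone of proteasome assembly, fell by 1.53. PSMA3-AS1 was not called (0.04).

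Among 12 pairs of receptors, ligands and immune signalling genes, 6 antisense RNAs were higher, 3 lower and 3 not called. MIF-AS1 rose by 2.13 from the strand opposite MIF, a macrophage cytokine whose row had 248, 177 and 176 normalized counts in compound 28 and 44.6, 54.4 and 16.4 in DMSO. Both groups of MIF values were apart, and the ratio of the pair was not called (-0.36, adjusted p = 0.3, limma). Of the exon length of MIF-AS1, 46.5% overlaps exons of MIF. As the strand setting of the counting is not given, the values of both rows are uncertain. IL10RB-AS1 rose by 1.83 with IL10RB (1.31), and ITGB2-AS1 by 1.07 with ITGB2 (1.10), the beta chain of leukocyte integrins. GAS6-AS1 rose by 0.49 and CD27-AS1 by 0.45. PRKCQ-AS1 fell by 1.92 with PRKCQ, the protein kinase C of T cell signalling, which fell by 2.39. TNFRSF14-AS1 (0.40), TRAF3IP2-AS1 (0.45) and TRG-AS1 (0.30) were not called.

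The 8 pairs of kinases, phosphatases and GTPase regulators had 3 antisense RNAs higher, 4 lower and 1 not called. LAMTOR5-AS1 rose by 3.88, with 1673, 1825 and 1388 normalized counts in compound 28 and 105, 112 and 111 in DMSO, while LAMTOR5, a subunit of the lysosomal Ragulator complex, rose by 0.48. SH3BP5-AS1 rose by 2.31 and SH3BP5 was not called (0.06). PRKAG2-AS1 fell by 2.17 and PPP3CB-AS1 by 0.40, and MAPKAPK5-AS1 was not called (-0.45).

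In 13 pairs of metabolic, mitochondrial and transport genes 7 antisense RNAs were higher, 5 lower and 1 not called. DBH-AS1 (1.85), SLC25A25-AS1 (1.43) and NDUFA6-AS1 (1.29) rose. Lower were DHRS4-AS1 (-2.10), NNT-AS1 (-1.72), COX10-AS1 (-1.40) and ALOX12-AS1 (-0.45), and GMDS-AS1 was not called (-0.13). NNT, the transhydrogenase that makes mitochondrial NADPH, changed by 0.20, whereas COX10, needed for the haem of cytochrome oxidase, fell by 1.19 with its antisense RNA.

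Of 10 pairs of cytoskeleton, adhesion and matrix genes 5 antisense RNAs were higher and 5 lower, and 6 pairs moved in the same direction. PARD6G-AS1 rose by 3.55, the same as PARD6G, a polarity protein, at 3.57. It had 955, 840.2 and 1127 normalized counts in compound 28 and 74.7, 91.9 and 79.3 in DMSO, far apart. MMP24-AS1 (0.74) and MMP25-AS1 (0.60) rose. SVIL-AS1 (-1.05), BAIAP2-AS1 (-0.87), VIM-AS1 (-0.84) and TTN-AS1 (-0.47) fell. VIM, the intermediate filament vimentin, changed by -0.01 and was not called (adjusted p = 0.94, limma).

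The other 27 antisense RNAs had 11 higher, 8 lower and 8 not called, and LRRC75A-AS1 belongs among them. PRR7-AS1 rose by 3.42, SLFNL1-AS1 by 1.34, FAM13A-AS1 by 1.19, VPS9D1-AS1 by 1.08 and RUSC1-AS1 by 1.06. Smaller rises were those of PTOV1-AS2 (0.86), C1RL-AS1 (0.78), TPT1-AS1 (0.66), NUTM2A-AS1 (0.53) and TSPOAP1-AS1 (0.48). Lower were RPARP-AS1 (-2.13), ADIRF-AS1 (-1.71), TMCC1-AS1 (-1.23), UBL7-AS1 (-1.20), LENG8-AS1 (-0.84), IQCH-AS1 (-0.51) and NUTM2B-AS1 (-0.47). NUTM2A-AS1 and NUTM2B-AS1 come from near-identical copies, so their values are uncertain. Not called were EMC3-AS1 (-0.31), ARRDC1-AS1 (-0.10), TMEM147-AS1 (0.05), TMEM161B-AS1 (0.13), PTOV1-AS1 (0.27), MELTF-AS1 (0.41), EPB41L4A-AS1 and TTC28-AS1.

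The nuclear exosome and the factors that lead RNA to it act on promoter-antisense RNAs. In a list of their genes, to which DIS3L of the cytoplasmic exosome and the exonucleases XRN1 and XRN2 were added, falls outnumbered rises. Of 31 genes tested 7 were higher, 18 lower and 6 not called, with a median of -0.48, beside 35.5% higher and 37.3% lower among all genes. EXOSC3, a subunit of the exosome cap, fell most, with 251, 278 and 249 normalized counts in compound 28 and 1036, 1134 and 1103 in DMSO. It fell by 2.07 on the log2 scale with no overlap (adjusted p = 1.5e-07, limma). XRN1, a cytoplasmic exonuclease, rose most (1.17, adjusted p = 3.8e-05), with 3822, 3569.7 and 3716 normalized counts in compound 28 and 1349, 1552 and 2141 in DMSO. SRRT, also called ARS2, which links capped RNAs to the exosome, had the highest normalized count of the list, without regard to length, and rose by 0.57 (adjusted p = 4.8e-04), with 12110.0, 12229 and 12503 normalized counts in compound 28 and 9145, 8736 and 7149.5 in DMSO. No groups of these 3 genes overlapped. On the ribosomal protein and mitochondrial scales 0 genes of the list were higher and 29 and 30 lower, with library sizes only 4 were higher, and with upper-quartile factors 11. The part of these genes in the antisense changes was not tested.

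**Figure D5:**
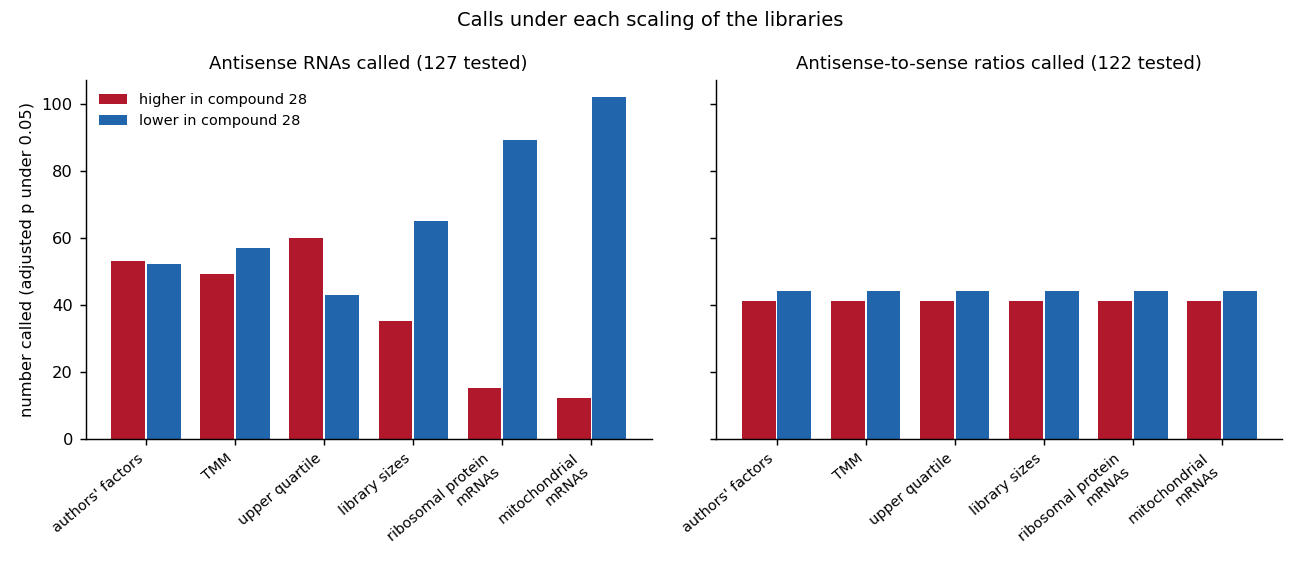
Number of antisense RNAs (left, 127 tested) and of antisense-to-sense ratios (right, 122 tested) called higher (red) or lower (blue) in compound 28 at an adjusted p under 0.05, under 6 scalings of the libraries. The left bars run from 53 higher and 52 lower with the authors' factors to 12 and 102 on mitochondrially encoded mRNAs. The right bars stay at 41 and 44, and the scale nearly cancels in a ratio.

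Calls made under all 7 scalings were counted, and 6 of these scalings are in the plot of calls by scaling. There 12 antisense RNAs were higher each time: IDI2-AS1, NEXN-AS1, ADAMTSL4-AS1, CSNK1G2-AS1, RAD21-AS1, PSMD6-AS2, LAMTOR5-AS1, PARD6G-AS1, PRR7-AS1, SH3BP5-AS1, RNF139-AS1 and MIF-AS1. Another 43 were lower each time, among them CEBPA-AS1, CARD8-AS1, TMPO-AS1, MAFG-AS1, INHBA-AS1, SRRM2-AS1, FGD5-AS1 and OIP5-AS1.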

How the data were processed

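The labels' protocols name TRIzol for extraction and the Illumina Stranded mRNA kit for the libraries. The submitters' processing notes list HTSeq, HISAT2, SAMtools, StringTie and fastp, and as builds hg19 and GRCh37. Versions and strand setting are not given in the sources used here. For each gene and library the authors deposited a normalized signal, found from the values to be read counts divided by a size factor per library: 100% of them were whole multiples of 1 read within 0.01 read. Other deposited columns hold a log2 fold change, a test score and p-values, raw and adjusted, per the file headers; of these the adjusted p-value and the sign were used for 1 count. The 5 HTSeq counter rows, 40.4% to 46.9% of reads in compound 28 and 30.4% to 32.8% in DMSO, were left out.

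Counts were called normalized counts here. The main test was limma-trend (limma 3.58.1, R 4.3.3) on log2(normalized count + 1), after filterByExpr of edgeR 4.0.16 had been applied to the recovered reads, with p-values adjusted by Benjamini-Hochberg over the 18278 genes kept. The pseudocount of 1 understates changes of low genes. Fold changes are on this scale. The antisense-to-sense ratio is the difference of the 2 log2 values in a library, fitted over the 412 pairs of the table. The scripts were tested on simulated data. There a 2-fold change was recovered in 80% of changed genes and 45% of changed pairs, and a 4-fold change in 100% and 95%. A ratio that was not called is therefore not shown to be unchanged. Arrangement, length and type came from GENCODE release 29 on GRCh38, which placed 126 members; as its build differs from that of the files, only the RefSeq windows carry coordinates. Abundance ranks are by normalized count, without regard to length.

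Members, lists and rules were chosen with earlier results of these data known. Values per library were given for the 5 most abundant members, the 5 largest rises and falls, the 5 largest rises and falls of the ratio, and up to 10 pairs called in opposite directions, with their sense genes. Other members were given by their log2 change, some members and their sense genes are not reported individually here although the counts include them, and LAMTOR5-AS1, PARD6G-AS1 and the sense genes MIF and WAC were given more fully after their values were seen. The surveillance list was represented by its largest rise, largest fall and most abundant gene. Alternatives were other scalings, tests (edgeR, DESeq2 1.42.0), pseudocounts and filters, a replicate block, and each library left out.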

Additional observations from a re-analysis of the deposited data

Results flagged for a closer look

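Reads that aligned to more than 1 place, a counter outside the gene rows, took 25.4%, 18.4% and 18.8% of all reads in compound 28, against 11.5%, 11.3% and 10.9% in DMSO. The mean was 20.85% ± 3.96 in compound 28 and 11.21% ± 0.278 in DMSO (SD, n = 3 each), and no library of compound 28 fell within the DMSO range. A two-sided exact permutation test gave p = 0.1, the smallest that 3 against 3 allows. Such reads were not assigned to genes, and their part in the antisense changes was not tested.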

How the results depend on the processing

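The scale set the split between higher and lower. Of all genes 4218 were higher with library sizes only, 1810 on mitochondrially encoded mRNAs (13 mRNAs), 2228 on ribosomal protein mRNAs (77 mRNAs) and 3624 with a filter at 5 CPM, which tests fewer genes; 13885 and 12440 were lower on the mitochondrial and ribosomal protein scales. On these scales 12 and 15 antisense RNAs were higher and 102 and 89 lower, and 35 were higher with library sizes only. Sense genes had 8 and 11 higher and 101 and 90 lower. The surveillance list had 0 higher on each and 30 and 29 lower, 4 higher with library sizes only and 11 with upper-quartile factors. Upper-quartile factors moved the median gene to 0.16 and TMM to -0.15.

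On the mitochondrial scale the log2 change turned to -0.25 for LRRC75A-AS1, -0.58 for SLC9A3-AS1, -0.74 for ZSCAN16-AS1, -0.90 for ZBED5-AS1, -0.11 for EPHA1-AS1, -0.81 for VLDLR-AS1, -0.14 for LRRC75A, -0.066 for NEXN, -0.85 for CSNK1G2, -1.26 for PSMD6 and -0.11 for SRRM2. On the ribosomal protein scale it turned to -0.24 for SLC9A3-AS1, -0.40 for ZSCAN16-AS1, -0.56 for ZBED5-AS1, -0.48 for VLDLR-AS1, -0.52 for CSNK1G2 and -0.92 for PSMD6. With library sizes only PSMD6 turned to -0.26. INHBA, not called, was at 0.14 with upper-quartile factors and ran from -0.158 to 0.093 with each library left out, above 0 without compound 28 replicate 2 (0.067) or DMSO replicate 3. The LRRC75A-AS1 ratio, not called, was at 0.102 and 0.168 without those libraries. The cause of these turns, beyond the scaling itself, was not tested.

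Leaving out each library in turn gave 49 to 53 antisense RNAs higher and 46 to 53 lower, 44 to 49 sense genes higher and 35 to 42 lower, ratios with 39 to 42 higher and 41 to 47 lower, 6 to 7 and 16 to 18 surveillance genes, and 6030 to 6511 and 6205 to 6654 of all genes. On the recovered reads edgeR called 6385 of all genes higher and 6893 lower; with edgeR 51 antisense RNAs were higher and 53 lower, and with DESeq2 57 and 49; neither was run for the ratio. Same-numbered libraries deviated from their group means with correlations of -0.02, 0.04 and 0.07, and 3 of 6 libraries matched their own number best. With so few libraries these values neither show nor exclude that the numbers pair the samples. A replicate block gave 53 antisense RNAs higher and 51 lower, and ratios with 41 higher and 45 lower. With 3 libraries a group, small changes such as that of PSMD6 and low RNAs such as FGD5 are measured least firmly.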
